A study of Mus musculus with 6 samples.

Results

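The genes described here are 9 genes of cyclic GMP and cyclic AMP signalling, measured in mouse regulatory T cells that carried a gfp allele of Blimp1 on 1 chromosome (Blimp1 +/gfp) or on both (Blimp1 gfp/gfp). They are Gucy1a1, Gucy1b1, Pde5a, Pde3b, Pde4b, Pde4d, Pde7a, Adcy7 and Crem, out of 17711 gene symbols on the array. They were chosen by their place in this pathway with their differences on these same arrays already known, the normalized log2 intensity of Blimp1 gfp/gfp minus Blimp1 +/gfp, so those differences are given as a description and no p-value of any of the 9 is reported. Every probe annotated to 1 of these symbols was taken, which gave 30 probes, of which 14 were detected on at least 3 of the 6 arrays. All 9 genes had such a probe and were among the 8743 genes tested.

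The samples were 3 of genotype Blimp1 +/gfp and 3 of genotype Blimp1 gfp/gfp, all labelled as regulatory T cells from bone marrow of strain C57/B6, with RNA amplified, labelled with Cy3 and hybridised to Illumina BeadChips. Blimp1 is the name used for the transcriptional repressor encoded by Prdm1, and from general knowledge of the gfp allele, cells with a gfp cassette in each copy lack functional Blimp-1, while Blimp1 +/gfp cells keep 1 working copy. Both groups therefore carry the gfp allele, and no sample without it was analysed here. The labels give no age, sex, sort or gate, and leave it unsaid if the 3 samples per genotype were from different animals. The p-values therefore rest on a spread between samples that may be technical.

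Cyclic GMP and cyclic AMP are small messengers made by cyclases and broken down by phosphodiesterases. Soluble guanylate cyclase, a dimer of an alpha and a beta subunit, makes cyclic GMP when nitric oxide binds to it. Adenylyl cyclases make cyclic AMP downstream of receptors coupled to stimulatory G proteins, and cyclic AMP acts through protein kinase A on transcription factors of the CREB family. Regulatory T cells are known for a high content of cyclic AMP, which restrains T cell activation, and Foxp3 is known to repress Pde3b in these cells.

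The 3 genes that were higher in Blimp1 gfp/gfp encode parts of the cyclic GMP branch, and their promoters are shown because all 3 were higher and lie on chromosome 3, which also holds Pde7a, whose values overlapped between the genotypes. Gucy1a1 and Gucy1b1 are direct neighbours there, with 0 annotated genes between them in GRCm38.p6 and the same strand. The sequences are RefSeq windows of GRCm38.p6 from 250 bases before to 50 bases after the start of a transcript, written 5′ to 3′ on the strand of the gene. Capitals mark a match to the core of the cyclic AMP response element (CRE), TGACG on either strand. The Gucy1a1 window shown is chr3:82145601-82145900 on the minus strand, the Gucy1b1 window is chr3:82074662-82074961 on the minus strand, and the Pde5a window is chr3:122728908-122729207 on the plus strand.
Gucy1a1: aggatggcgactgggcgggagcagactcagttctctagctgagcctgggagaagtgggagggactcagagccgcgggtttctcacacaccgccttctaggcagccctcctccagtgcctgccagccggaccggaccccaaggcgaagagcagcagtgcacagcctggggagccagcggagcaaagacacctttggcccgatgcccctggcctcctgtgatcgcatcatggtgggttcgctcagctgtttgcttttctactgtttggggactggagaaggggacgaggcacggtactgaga
Gucy1b1: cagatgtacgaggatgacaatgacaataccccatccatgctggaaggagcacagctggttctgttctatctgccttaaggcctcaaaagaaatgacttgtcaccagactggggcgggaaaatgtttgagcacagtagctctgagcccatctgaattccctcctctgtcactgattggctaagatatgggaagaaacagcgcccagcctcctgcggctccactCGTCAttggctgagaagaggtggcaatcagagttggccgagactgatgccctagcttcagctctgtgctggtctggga
Pde5a: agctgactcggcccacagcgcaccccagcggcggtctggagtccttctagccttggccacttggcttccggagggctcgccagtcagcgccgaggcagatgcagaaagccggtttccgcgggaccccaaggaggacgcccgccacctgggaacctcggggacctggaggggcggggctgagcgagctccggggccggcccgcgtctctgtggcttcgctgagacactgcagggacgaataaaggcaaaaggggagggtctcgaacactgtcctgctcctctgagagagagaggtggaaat
The Gucy1b1 window held 1 CRE core, at position -28 from the start and on the strand opposite to the gene, and the Gucy1a1 and Pde5a windows held 0. Of the other windows found, 1 of 4 of Pde4b held a core at -34 and 1 of 3 of Adcy7 at -28. Of 32851 windows of 300 bases in the RefSeq table, 20.8% held TGACG on either strand. The whole palindromic CRE, TGACGTCA, which contains the core, was in 1.79% of all windows and in 0 of the 12 windows found for 6 of the 9 genes. The letters AGTGAAAG and AGCGAAAG, the core of the sequence known to be bound by Blimp-1, were in 1.32% and 0.524% of all windows and in 0 of those 12. These matches describe letters in short windows and say nothing of binding. No window was found for Pde3b, Pde7a or Crem, so their promoters were not examined.

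The arrays detected 14694 to 16067 of 46632 probes (31.5% to 34.5%), where detection means a detection p-value under 0.05, and the number of arrays limits the precision. All 5 regulatory T cell markers, Foxp3 among them, were detected on all 6 arrays, as were the 4 T cell markers on the array. In limma across all genes, 360 of 8743 genes were past a Benjamini-Hochberg adjusted p of 0.05 (4.12%), 212 of them higher in Blimp1 gfp/gfp (2.42%) and 148 lower (1.69%). With median scaling in place of quantile normalization the split was 283 to 121, and the median difference of all genes moved from 0.03 to 0.16 on the log2 scale. The count fell to 79 when Blimp1 +/gfp replicate 1 was left out and to 125 when replicate 2 of that genotype was. It was 219, 193 or 158 when 1 of the Blimp1 gfp/gfp arrays (replicate 1, 2 or 3) was left out. Blimp1 +/gfp replicate 3 stood apart in some, not all, of its markers of other cells. S100a8, of the myeloid and granulocyte list, was 5.04, 9.49 and 9.97 in Blimp1 +/gfp and was detected on 0 Blimp1 gfp/gfp arrays. Eomes, of the CD8 and NK cell list, was lowest of the 6 arrays in Blimp1 +/gfp replicate 3, at 6.03. Fcer1g, a myeloid Fc receptor chain, was 12.91 in that replicate and at most 9.73 elsewhere. H2-Ab1, an MHC class II chain, was 14.47 in that replicate and at most 12.28 elsewhere. The summed level of the marker list of regulatory T cells was 14.80 to 14.97 (log2) in Blimp1 +/gfp and 13.96 to 14.62 in Blimp1 gfp/gfp, and 1 of its 5 genes, Tnfrsf18, was past the threshold, lower in Blimp1 gfp/gfp. The summed levels of the lists of other cells overlapped between the genotypes, apart from the platelet list of Gp1bb and others. They were 11.00 to 13.57 against 9.29 to 11.10 for myeloid, 13.71 to 16.08 against 13.42 to 14.20 for antigen presentation, and 9.86 to 11.09 against 10.30 to 11.45 for B lineage markers. For erythroid markers they were 7.11 to 13.44 against 10.03 to 12.96, and for CD8 and NK cell markers 11.68 to 12.01 against 11.40 to 12.29, the Blimp1 +/gfp range first. A sum follows its brightest genes, and 1 gene in each of 3 of these lists did not overlap between the genotypes, with 0 past the threshold in the 3 lists. Lyz2, a myeloid lysozyme, was 10.29, 10.55 and 10.94 in Blimp1 +/gfp against 10.28, 7.35 and 7.16. Cd79a, a chain of the B cell receptor complex, was 5.15, 5.36 and 7.30 against 8.53, 7.35 and 7.64. Klf1, an erythroid transcription factor, was detected in all 3 samples of Blimp1 gfp/gfp but 0 of the 3 of Blimp1 +/gfp. The part of these cells in the results was not tested. Each genotype was hybridised on a BeadChip of its own, and Eif2s3y, a gene of the Y chromosome, was detected on 3 Blimp1 +/gfp and 0 Blimp1 gfp/gfp arrays. Xist, the RNA of the inactive X chromosome, was 9.69, 9.20 and 5.52 in Blimp1 +/gfp, where replicate 3 did not detect it, and 9.89, 11.37 and 11.02 in Blimp1 gfp/gfp. Thus 2 of the 3 samples of Blimp1 +/gfp, replicates 1 and 2, held both transcripts and replicate 3 held Eif2s3y alone. BeadChip, the sex of the animals as far as Y-linked expression shows it, and genotype cannot be told apart. The Prdm1 probe read 5.76, 5.82 and 5.50 in Blimp1 +/gfp and 7.14, 7.75 and 7.54 in Blimp1 gfp/gfp. Its place relative to the gfp cassette is not stated, so it does not check the labels.

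The cyclic GMP genes Gucy1a1, Gucy1b1 and Pde5a were higher in Blimp1 gfp/gfp. The cyclic AMP genes Pde3b, Pde4d and Crem were lower, with Blimp1 +/gfp replicate 3 of Pde4d close to the Blimp1 gfp/gfp samples. Adcy7, Pde4b and Pde7a overlapped between the genotypes. Of the 9 genes, 5 are among the 4.12% of tested genes past the threshold, 3 of them among the 2.42% higher in Blimp1 gfp/gfp and 2 among the 1.69% lower. For 6 of the 9 genes the values of the genotypes did not overlap, as for 25.8% of all tested genes. Since the genes were chosen with this contrast in view, both counts were open to that choice, and nothing is read from them. Values are normalized log2 intensities of each gene's brightest detected probe, and levels of different genes cannot be compared on this scale because probes differ in brightness.

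**Figure D1:**
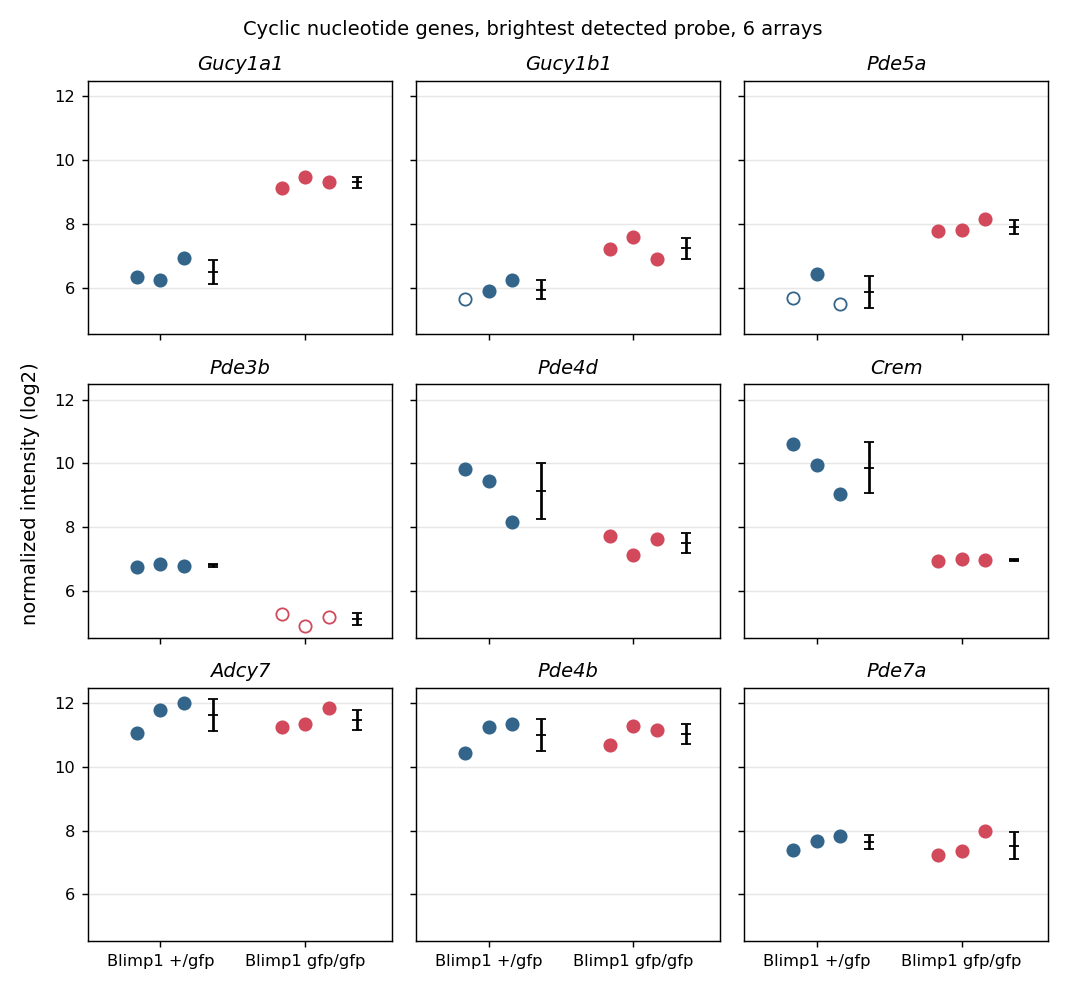
Normalized intensity (log2, vertical axis) of the 9 genes on each array, by genotype (horizontal axis, Blimp1 +/gfp blue, Blimp1 gfp/gfp red). Each point is 1 array, open where the probe was not detected, and the bars give mean ± SD (n = 3). Gucy1a1, Gucy1b1 and Pde5a lie higher and Pde3b, Pde4d and Crem lower on every Blimp1 gfp/gfp array than on any Blimp1 +/gfp array, while Adcy7, Pde4b and Pde7a overlap.

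Gucy1a1 encodes the alpha subunit of soluble guanylate cyclase. It was 6.33, 6.23 and 6.92 in Blimp1 +/gfp and 9.14, 9.48 and 9.31 in Blimp1 gfp/gfp, detected on all 6 arrays. The lowest Blimp1 gfp/gfp array was thus well above the highest Blimp1 +/gfp array. The log2 difference was 2.82 ± 0.22 (SE), a 7.04-fold higher normalized intensity in Blimp1 gfp/gfp, from 6.49 ± 0.37 to 9.31 ± 0.17 (SD, n = 3). The raw bead intensities, before background correction, were 212.7, 210.5 and 244.8 against 695.3, 947.9 and 785.6, where the median of all probes was 157.4 to 164.8 per array. Without background correction the log2 difference was 1.77.

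The array carried 4 probes for Gucy1a1, and all 4 were higher in Blimp1 gfp/gfp without overlap between the genotypes. Over all probes on the array, 15.1% did not overlap, and 8.01% were higher in this way. The second brightest, ILMN_1241211, was below detection in all 3 Blimp1 +/gfp samples (5.75, 5.61 and 5.60) and was detected on all 3 Blimp1 gfp/gfp arrays (6.86, 6.74 and 6.59). In the background-corrected values with an offset of 16, it was at least 1.94-fold higher. Here the dim group is set at the higher of its own value and the lowest detected value of each array. This bound depends on those settings and carries no standard error. ILMN_1228564 differed by 0.85 ± 0.13 (SE), but it was detected on 2 Blimp1 gfp/gfp arrays and on 0 Blimp1 +/gfp arrays. ILMN_1233537 differed by 0.57 ± 0.11 (SE) and was detected on no array, so these 2 probes add little.

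Gucy1b1 encodes the beta subunit, which carries the heme that binds nitric oxide. It was 5.65, 5.90 and 6.25 in Blimp1 +/gfp and 7.22, 7.57 and 6.90 in Blimp1 gfp/gfp. Its single probe was detected on 2 Blimp1 +/gfp arrays and on all 3 Blimp1 gfp/gfp arrays, so its level in Blimp1 +/gfp was at the edge of detection and the groups did not overlap. The log2 difference was 1.30 ± 0.23 (SE), a 2.46-fold higher normalized intensity. When each of the 6 arrays was left out in turn, the log2 difference lay between 1.12 and 1.46. Without background correction the log2 difference was 0.56.

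Pde5a encodes the phosphodiesterase that breaks down cyclic GMP and is the target of sildenafil. It was 5.66, 6.42 and 5.50 in Blimp1 +/gfp, where 1 of 3 arrays detected it, and 7.77, 7.80 and 8.16 in Blimp1 gfp/gfp, where all 3 did. Every Blimp1 gfp/gfp array was above every Blimp1 +/gfp array. On the log2 scale the genotypes differed by 2.05 ± 0.27 (SE), a value that rests on a Blimp1 +/gfp level measured above background on 1 array, and by 0.98 without background correction. Its second probe, ILMN_2764541, was detected on 1 Blimp1 gfp/gfp array only and differed by 0.38 ± 0.25 (SE), with overlap between the genotypes.

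Platelets and smooth muscle cells are known to contain soluble guanylate cyclase and the Pde5a product, so markers of those cells were examined. Of the 5 megakaryocyte and platelet markers on the array, Pf4, Itga2b and Gp9 were detected on no array and Ppbp on 1, Blimp1 gfp/gfp replicate 1. Gp1bb, a chain of the platelet von Willebrand factor receptor, was 5.26, 6.03 and 5.43 in Blimp1 +/gfp and 6.96, 6.95 and 6.81 in Blimp1 gfp/gfp, and it was the 1 marker tested and the 1 past the threshold. The summed level of the 5 markers was 7.40 to 7.62 (log2) in Blimp1 +/gfp and 7.93 to 8.17 in Blimp1 gfp/gfp. The part of Gp1bb or of any cell that makes it in the differences of Gucy1a1, Gucy1b1 and Pde5a was not tested. Of the 7 smooth muscle and stromal markers, 5 were detected on no array, Acta2 and Myh11 among them, and Des and Pdgfrb on 1 array each. Their summed level was 7.94 to 8.12 in Blimp1 +/gfp and 7.90 to 8.06 in Blimp1 gfp/gfp. In bulk samples, a change in the number of cells of a type and a change in RNA per cell cannot be told apart.

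Pde3b encodes a phosphodiesterase that breaks down cyclic AMP and is inhibited by cyclic GMP. It was 6.77, 6.86 and 6.79 in Blimp1 +/gfp, where all 3 arrays detected it, against 5.28, 4.90 and 5.20 in Blimp1 gfp/gfp, where no array did. The Blimp1 +/gfp values differed little among themselves (6.81 ± 0.05 SD, n = 3) and lay clear of the Blimp1 gfp/gfp values. The transcript was below detection in Blimp1 gfp/gfp, so the difference is given as a bound. In the background-corrected values with an offset of 16, its normalized intensity was at least 2.15-fold lower in Blimp1 gfp/gfp. This bound depends on those settings and carries no standard error. The measured log2 difference was -1.68 ± 0.15 (SE), and it was -0.69 without background correction and -1.08 with an offset of 50 in place of 16. The second probe, ILMN_1249213, was not detected on any array and differed by 0.10 ± 0.16 (SE).

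Crem encodes a CREB-family transcription factor whose products include activators and ICER, a repressor that is itself induced by cyclic AMP. It was 10.62, 9.96 and 9.04 in Blimp1 +/gfp and 6.95, 7.0 and 6.96 in Blimp1 gfp/gfp, detected on all 6 arrays. The Blimp1 +/gfp samples were spread widely while the Blimp1 gfp/gfp samples were nearly equal (SD 0.79 and 0.03, n = 3 each), and the groups did not overlap. The log2 difference was -2.90 ± 0.37 (SE), so the normalized intensity was 7.47-fold lower in Blimp1 gfp/gfp. Without Blimp1 +/gfp replicate 3 the log2 difference was -3.32, and without Blimp1 +/gfp replicate 1 it was -2.53.

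Of the 7 Crem probes, only ILMN_1242622 carried this difference. Of the other 6, 4 were detected on no array, ILMN_1216758 was detected on 1 Blimp1 +/gfp array and ILMN_1243588 on 2. Their log2 differences lay between -0.30 and 0.13. The annotation names the same RefSeq transcript for ILMN_1242622 and for ILMN_1216758, ILMN_1244890, ILMN_2747264 and ILMN_2756265. The sources used here do not say which further Crem transcripts each probe reads, so the values cannot be assigned to activator or repressor forms.

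Pde4d encodes a cyclic AMP phosphodiesterase of the family blocked by rolipram. It was 9.82, 9.45 and 8.15 in Blimp1 +/gfp and 7.74, 7.14 and 7.62 in Blimp1 gfp/gfp. The genotypes did not overlap, but Blimp1 +/gfp replicate 3 was close to the Blimp1 gfp/gfp samples, and its Crem value was also the lowest of its genotype. The log2 difference was -1.64 ± 0.43 (SE, 95% interval -2.65 to -0.62). With replicate 3 of Blimp1 +/gfp left out, which is where Fcer1g and H2-Ab1 were highest, the log2 difference was -2.13 ± 0.24 (SE). The other 3 Pde4d probes were detected on no array, with log2 differences of -0.29, -0.22 and -0.12.

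**Figure D2:**
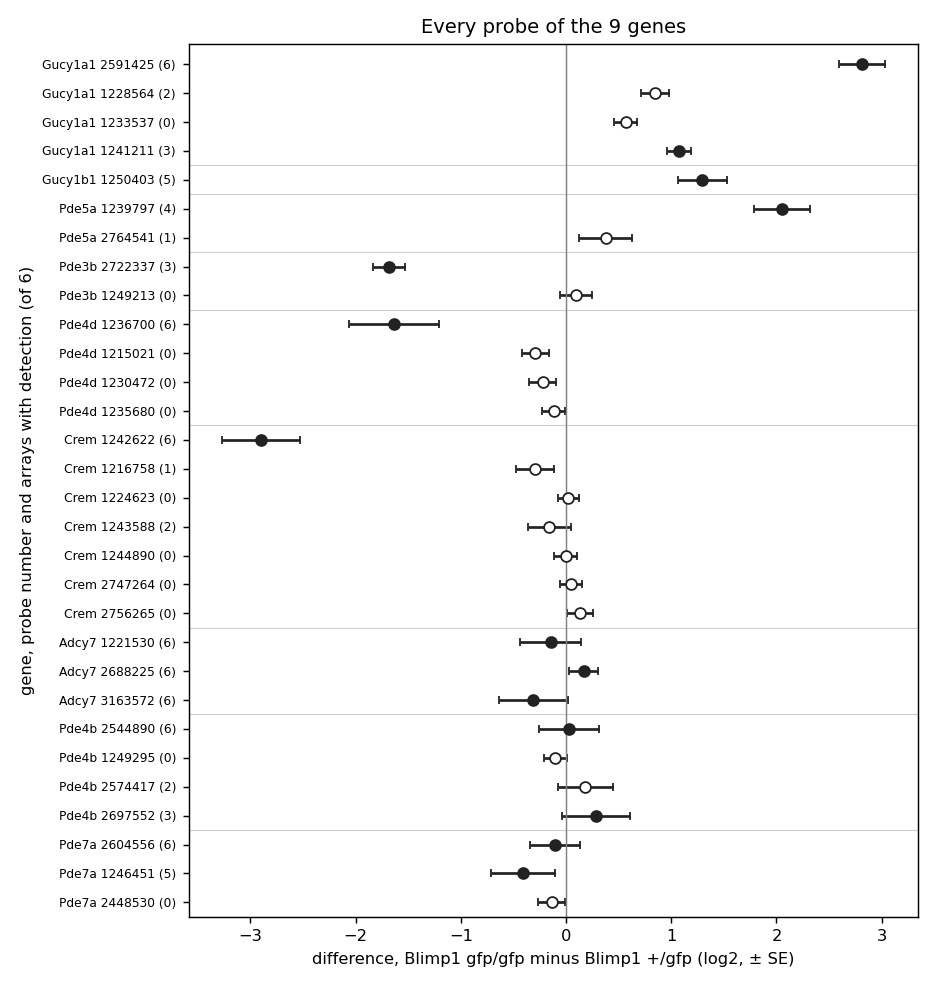
Log2 difference, Blimp1 gfp/gfp minus Blimp1 +/gfp (horizontal axis, ± SE), of each of the 30 probes of the 9 genes, with the probe number and the count of arrays that detected it in brackets. Filled points were detected on at least 3 of 6 arrays. All 4 Gucy1a1 probes lie above 0, while the large negative differences of Pde3b, Pde4d and Crem each rest on 1 probe.

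The remaining genes showed no separation of the genotypes. Adcy7, an adenylyl cyclase abundant in lymphocytes, was 11.06, 11.78 and 12.01 in Blimp1 +/gfp and 11.24, 11.34 and 11.84 in Blimp1 gfp/gfp. The ranges overlapped, and the log2 difference was -0.15 ± 0.29 (SE, 95% interval -0.83 to 0.54). Its other 2 probes, both detected on all 6 arrays, differed by 0.17 ± 0.14 and -0.31 ± 0.33 (SE). The 3 probes thus bracketed 0.

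Pde4b, a further cyclic AMP phosphodiesterase of the rolipram-sensitive family, was 10.44, 11.25 and 11.33 in Blimp1 +/gfp and 10.69, 11.28 and 11.14 in Blimp1 gfp/gfp. Within each genotype replicate 1 was the lowest, and the groups overlapped throughout. On the log2 scale the genotypes differed by 0.03 ± 0.29 (SE, 95% interval -0.65 to 0.71). The other 3 probes were detected on at most 3 arrays, with log2 differences of -0.10, 0.18 and 0.29.

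Pde7a, a cyclic AMP phosphodiesterase found in T cells, was 7.40, 7.68 and 7.83 in Blimp1 +/gfp and 7.23, 7.37 and 8.0 in Blimp1 gfp/gfp. The highest and the lowest of its 6 values were both Blimp1 gfp/gfp samples. The log2 difference was -0.10 ± 0.24 (SE, 95% interval -0.67 to 0.46), and its other detected probe, ILMN_1246451, differed by -0.41 ± 0.31 (SE). By their brightest probes, the intervals of these 3 genes leave room for differences of up to 0.83 on the log2 scale in 1 direction or the other. Some other detected probes had wider 95% intervals, reaching -1.14 for Pde7a (ILMN_1246451), -1.09 for Adcy7 (ILMN_3163572) and 1.06 for Pde4b (ILMN_2697552). That of Adcy7 probe ILMN_2688225 was narrower, at -0.16 to 0.50.

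**Figure D3:**
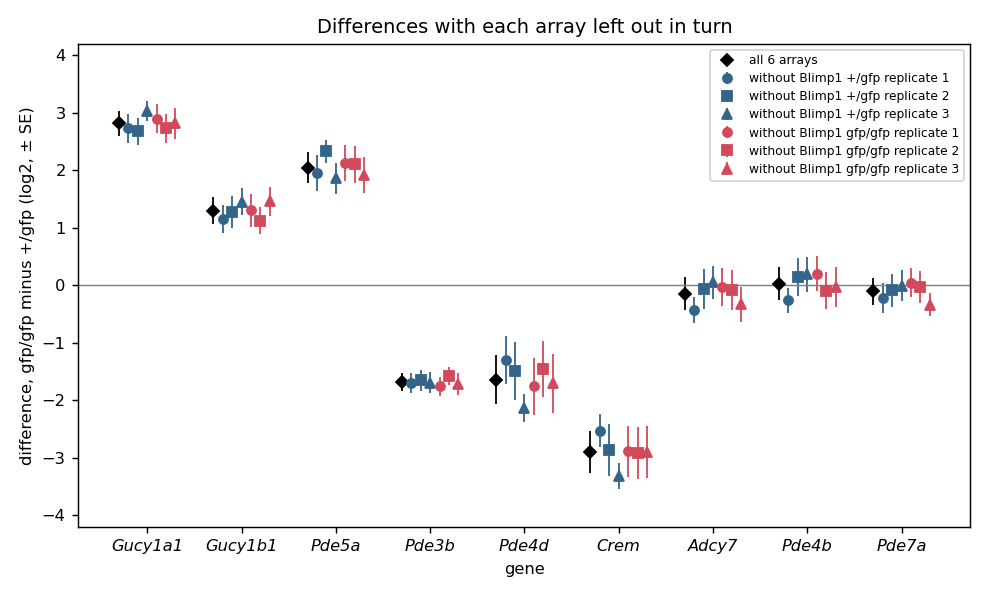
Log2 difference, Blimp1 gfp/gfp minus Blimp1 +/gfp (vertical axis, ± SE), of each of the 9 genes (horizontal axis) with all 6 arrays (black) and with each array left out in turn (blue for Blimp1 +/gfp, red for Blimp1 gfp/gfp). The differences of Gucy1a1, Pde4d and Crem are largest in size without Blimp1 +/gfp replicate 3 (3.03, -2.13 and -3.32).

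Genes with the most similar profiles were sought among the 8743 tested, by the root mean square distance of mean-centred log2 values over the 6 arrays, for the 4 genes with the largest differences. Nearest to Crem was Havcr2, the gene of the inhibitory receptor TIM-3, at a distance of 0.24, with values of 10.93, 11.00 and 9.52 in Blimp1 +/gfp and 7.35, 7.62 and 7.67 in Blimp1 gfp/gfp. Cables1 and Serpina9 followed at 0.38 and 0.39, and all of these were lowest among Blimp1 +/gfp samples in replicate 3, like Crem. They were picked for likeness to Crem on these same arrays, so this shared pattern follows from the choice and nothing is read from it. Nearest to Gucy1a1 were Acpp, a prostatic acid phosphatase, at 0.19, then Muc13, a membrane mucin, at 0.22 and Tns4, a tensin, at 0.24. Nearest to Pde5a were Cdk5r1, an activator of the kinase Cdk5, at 0.27, Ppfibp1 at 0.29 and Fhdc1 at 0.31. Nearest to Pde3b were Sh3bp2, an adaptor protein, at 0.16, Slc66a2 at 0.16 and Gpr55, a lysophospholipid receptor, at 0.18.

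The genes around the 9 in the pathway were taken from a list of 119 genes in 13 roles, chosen with earlier results of these data known. Of these, 103 were on the array and 42 were detected on enough arrays to be tested. In limma, 1 of the 42 was past the threshold (2.38%, beside 4.12% of all genes), higher in Blimp1 gfp/gfp, and 0 were lower, and 5 (11.9%) had an unadjusted p under 0.05, beside 18.5% of all tested genes. The median log2 difference of the 42 was 0.01, beside 0.03 over all tested genes. The 9 genes, chosen with their differences known, are not among the 42. The shares of the 42 were thus open to that choice and do not describe the whole pathway.

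The gene that rose was Ptger2, which encodes the prostaglandin E2 receptor EP2, coupled to the stimulatory G protein that raises cyclic AMP. It was 8.73, 8.37 and 9.04 in Blimp1 +/gfp and 9.83, 10.32 and 10.03 in Blimp1 gfp/gfp, without overlap. The log2 difference was 1.35 ± 0.22 (SE; limma, Benjamini-Hochberg adjusted p = 0.0226). Its second probe, detected on 2 Blimp1 gfp/gfp arrays, differed by 0.41 ± 0.13 (SE). The call of Ptger2 ended when Blimp1 +/gfp replicate 1 or 2 was left out (limma adjusted p = 0.0887 and 0.0797) and when Blimp1 gfp/gfp replicate 2 or 3 was (0.0716 and 0.0808), and all alternatives gave 0.00478 to 0.0887.

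Of the 17 other guanylate cyclase, nitric oxide synthase and cyclic GMP effector genes on the array, only Vasp was detected on at least 3 arrays. None of the 5 further guanylate cyclase and natriuretic peptide receptor genes on the array was detected on any of the 6 arrays, nor were the nitric oxide synthases Nos1, Nos2 and Nos3. Prkg1, a cyclic GMP-dependent kinase, was detected on no array and Prkg2, its relative, on 2. Vasp, an actin regulator that this kinase phosphorylates, was 14.67, 14.87 and 15.12 in Blimp1 +/gfp and 14.71, 14.93 and 14.91 in Blimp1 gfp/gfp. Its log2 difference was -0.04 ± 0.17 (SE; limma, Benjamini-Hochberg adjusted p = 0.949), with a sign that turned under 4 of 17 alternatives. A transcript that is not detected here may still be present below the sensitivity of the array.

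Among the enzymes of cyclic AMP turnover, Adcy3, an adenylyl cyclase, differed by -0.12 ± 0.28 (SE; limma adjusted p = 0.877), and the sign turned without Blimp1 +/gfp replicate 2 or without Blimp1 gfp/gfp replicate 1 (0.13 and 0.05). The 4 other phosphodiesterases tested, Pde1b, Pde2a, Pde4a and Pde8a, all had negative log2 differences, from -0.46 to -0.08, and 0 passed in limma, nor did any at an unadjusted p under 0.05. Pde2a, which cyclic GMP stimulates to break down cyclic AMP, had the smallest p of them (log2 difference -0.39 ± 0.21 SE; limma adjusted p = 0.385). Gnai2, the inhibitory G protein subunit abundant in T cells, differed by 0.27 ± 0.16 (SE; limma adjusted p = 0.429). Abcc4, a transporter that exports cyclic AMP, differed by 0.40 ± 0.15 (SE; limma adjusted p = 0.216), with no overlap between the genotypes.

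Of 8 genes of protein kinase A subunits and inhibitors, 0 passed in limma, and 2 had an unadjusted p under 0.05, a share near that of all tested genes. These were the regulatory subunits Prkar2b, with a log2 difference of 0.85 ± 0.24 (SE; limma adjusted p = 0.117) by its brightest probe and -0.27 and 0.03 by the other 2, and Prkar2a, with 0.67 ± 0.26 (SE; limma adjusted p = 0.231). The catalytic subunits Prkaca and Prkacb differed by 0.04 ± 0.15 and 0.03 ± 0.13 (SE). Of 7 A-kinase anchoring proteins, which hold the kinase at its sites, 0 passed in limma, and 1 had an unadjusted p under 0.05, Akap13. Its log2 difference was -0.78 ± 0.28 (SE; limma adjusted p = 0.196) by its brightest probe. Of its other probes, ILMN_1233942 and ILMN_2494465 were detected on no array and differed by -0.10 and 0.27. ILMN_2748120, detected on 1 Blimp1 gfp/gfp array, differed by 0.51 ± 0.14 (SE), in the opposite direction. Of the exchange factors of Rap, Rapgef2 differed by -0.17 ± 0.17 (SE; limma adjusted p = 0.68).

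Among 7 CREB family factors and coactivators, 0 passed in limma and 0 had an unadjusted p under 0.05, beside the large difference of Crem. Creb1, the best known member of the family, differed by -0.02 ± 0.19 (SE; limma adjusted p = 0.971), and Crtc1, a coactivator of CREB, by 0.39 ± 0.23 (SE; limma adjusted p = 0.433). The 4 cyclic AMP response genes tested also gave 0 past the threshold in limma, and 0 with an unadjusted p under 0.05. Fos, an early response gene, was 8.71, 7.83 and 7.87 in Blimp1 +/gfp and 8.63, 11.89 and 9.12 in Blimp1 gfp/gfp (limma adjusted p = 0.318). Its log2 difference of 1.74 ± 0.81 (SE) rested largely on Blimp1 gfp/gfp replicate 2, and was 0.74 without it.

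**Figure D4:**
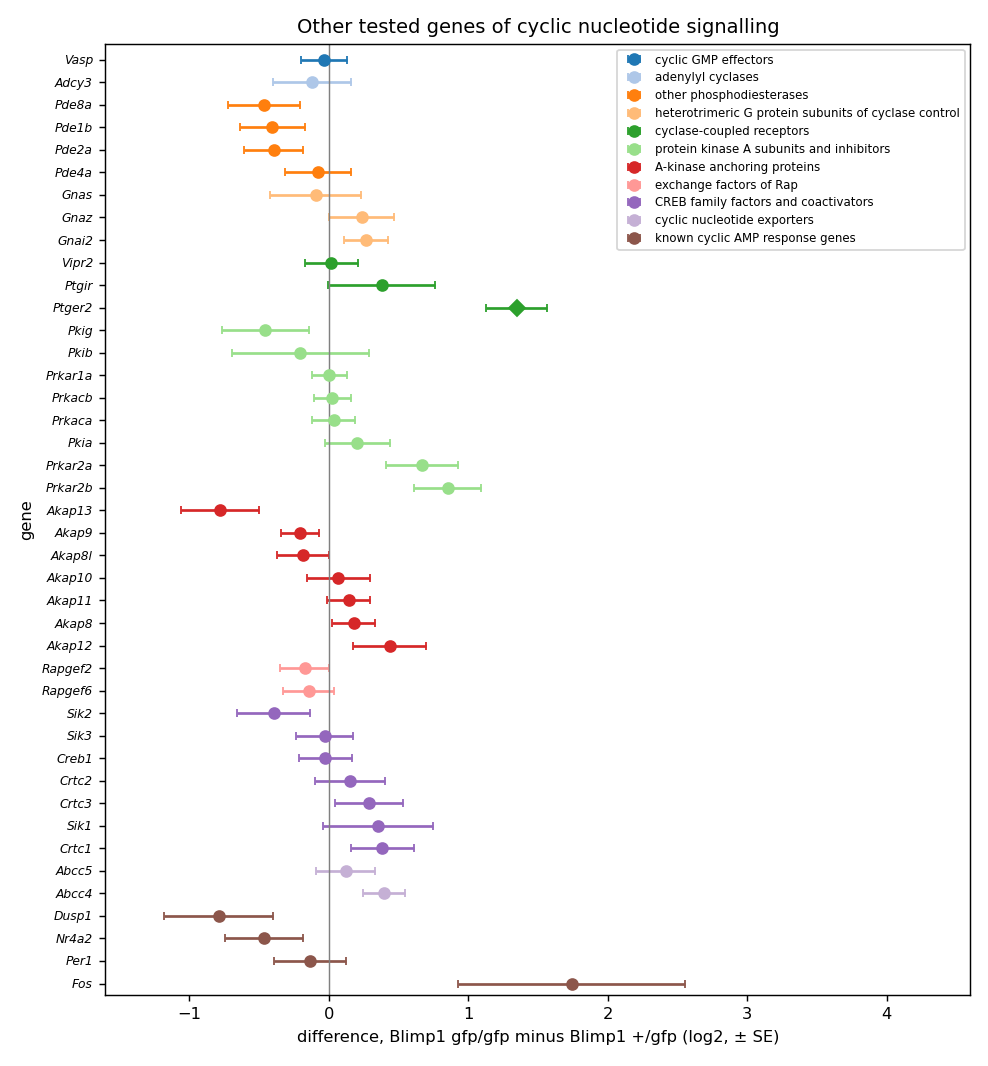
Log2 difference, Blimp1 gfp/gfp minus Blimp1 +/gfp (horizontal axis, ± SE), of the 42 tested genes of cyclic nucleotide signalling outside the 9 (vertical axis), coloured by role. Ptger2 (diamond, 1.35) is the 1 gene past the threshold, and the wide bar of Fos reflects the spread of its Blimp1 gfp/gfp samples.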

How the data were processed

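RNA of 6 samples, 3 per genotype, was measured on Illumina BeadChips. The deposited signal table holds a linear bead intensity for each of 46632 probes, without background subtraction or normalization, judging from the values, and per the file headers a detection p-value per probe and array. The submitters' processing notes name BeadStudio and limma, with versions and settings not given in the sources used here. The authors' deposited log2 values differed from neqc values computed here by at most 0.0975 (median 0.00293), which fixes their scale, centring and direction. Their column medians were 5.234 to 5.236. They served as an alternative.

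From the intensities, neqc (limma 3.58.1, R 4.3.3) made log2 values by normexp background correction, with negative controls estimated through the detection p-values, an added offset of 16 and quantile normalization, so that differences of dim genes are understated. Of the probes, 29976 had 1 gene symbol in the platform annotation, 10 several and 16646 none. Of the first, 29921 matched a RefSeq gene of GRCm38.p6 by Entrez ID. Probes detected (p under 0.05) on at least 3 arrays were kept, and the probe with the highest mean stood for its gene. The difference, with Blimp1 +/gfp as the base, was fitted with lmFit and eBayes and adjusted by Benjamini-Hochberg over 8743 genes. The fit was tested on simulated data.

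The 9 genes and the gene lists were chosen with earlier results of these data known. Besides all probes of the 9, the text names pathway genes past the threshold, or the gene with the smallest p in a role with none, the 3 nearest profiles of 4 genes, and cell type markers. Further genes named with values (Prkar2a, Prkaca, Prkacb, Creb1) were chosen after their values were seen. Alternatives were other background corrections, normalizations, filters, probe summaries, variance models, a replicate block, thresholds, the deposited values and the omission of each array with genes and probes kept. Figures were drawn with matplotlib 3.10.9.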

Additional observations from a re-analysis of the deposited data

How the results depend on the processing

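Over the 17 alternatives run for each, the log2 differences of Gucy1a1, Gucy1b1, Pde5a, Pde3b, Pde4d and Crem took values of 1.77 to 3.03, 0.56 to 1.46, 0.98 to 2.33, -1.76 to -0.69, -2.13 to -1.17 and -3.32 to -2.06. Those sizes were smallest without background correction, and depth of signal over background limits the dim genes: Pde3b in Blimp1 gfp/gfp and Gucy1b1 and Pde5a in Blimp1 +/gfp were at or below detection. The signs of Pde4b, Pde7a and Adcy7 turned under some alternatives. The count of the 9 genes past the threshold, from which nothing is read because of their choice, was 3 to 6 over the omissions of an array. It was 4 with the replicate block and 2 at a threshold of 0.01. Beside it, the count of changed genes, 360 of 8743, was 79 to 366 over the omissions and 171 with the replicate block. It was 827 with array weights, 71 at a threshold of 0.01 and 668 at 0.1. The count of changed pathway genes outside the 9, 1, was 0 to 1 over the omissions, and 0 with the replicate block and at 0.01 in limma, where 6 and 5 had an unadjusted p under 0.05. The call of Ptger2 ended with the replicate block (limma adjusted p = 0.0808). The cause of these shifts was not tested. The log2 difference of Vasp turned to 0.0068 with median scaling and 0.023 with array weights, and lay between -0.144 and 0.0799 over the omissions, and that of Adcy3 lay between -0.35 and 0.13. The deviations of same-numbered samples from their group means correlated at 0.189, -0.0759 and 0.00102. Those of differently numbered samples correlated at -0.148 to 0.165. Such correlations cannot settle if the samples were paired by number. The replicate block is therefore given as an alternative only and is not read as a paired analysis. A BeadChip block could not be fitted because each BeadChip held 1 genotype.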
